A study of Mus musculus with 7 samples.

Results

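The genes described here are the chemokines Cxcl12 and Cxcl16 and their receptors Cxcr4, Ackr3 and Cxcr6 in whole mouse gliomas. They were selected by symbol and are 5 of the 32285 genes in each count matrix. On GRCm38 the ligand Cxcl12 (ENSMUSG00000061353) lies on chromosome 6 at 117168535 to 117181367, plus strand, and Cxcl16 (ENSMUSG00000018920) on chromosome 11 at 70453983 to 70459984, minus strand. Cxcr4 (ENSMUSG00000045382) lies on chromosome 1 at 128588199 to 128592293, minus strand, and Ackr3 (ENSMUSG00000044337) on the same chromosome at 90203980 to 90216751, plus strand. Cxcr6 (ENSMUSG00000048521) lies on chromosome 9 at 123806475 to 123811760, plus strand. The 3′ counts are given as 1 value per gene, so exons and isoforms are not separated.

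CXCL12 is a secreted chemokine that holds leukocytes and progenitor cells near the vessels and stroma that make it. It acts through the G protein-coupled receptor CXCR4, while ACKR3 binds the same ligand without classical G protein signalling and removes it from the surroundings. CXCL16 is made as a membrane-bound chemokine that can be shed by the proteases ADAM10 and ADAM17, and its receptor CXCR6 marks activated and tissue-resident T cells.

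The study profiled dissociated NSCG-mCherry brain tumours (EGFRvIII-positive, Arf/Ink4a-/-) in WT C57BL/6 mice aged 7 to 10 weeks by droplet single-cell RNA sequencing, with at least 2 mice pooled in each library. All 7 libraries carry the same tumour line and were taken at about day 14. The IgG group (2 libraries) received IgG2b isotype control at 10 mg/kg, and the BP group (2 libraries) received B20, an anti-VEGF antibody, at 5 mg/kg with anti-PD-L1 at 10 mg/kg, in 3 rounds each. The BPI library had the BP antibodies plus IPI-145, a PI3K inhibitor, at 10 mg/kg. The CD40 library had 2 doses of 100 µg of an agonist antibody to CD40, a receptor on B and myeloid cells, and the labels do not say whether a dendritic cell vaccine was also given. The UT library is labelled as control and UT is not spelled out. Only IgG and BP have more than 1 library, and p-values between groups measure the spread between their pooled libraries. UT, BPI and CD40 are 1 library each, so their p-values borrow that spread and hold none of their own.

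After filtering, 48588 cells remained, and the libraries held 68997476 to 186793886 unique molecular identifiers (UMIs, counted transcripts) over all barcodes. Cells were clustered without the 5 genes and named from markers, and 8.15% stayed unnamed. T-like cells numbered 273 in UT, 39 and 57 in IgG 1 and 2, 1289 and 227 in BP 1 and 2, 595 in BPI and 129 in CD40. UT shared 0 to 4 cell barcodes with each other library, and the other 6 shared 10 to 27 with one another. The deposited matrix of UT lists 713553 barcodes and those of the others 1487060 to 2310016. The labels give all libraries 1 chemistry, and whether UT was prepared differently could not be settled, so preparation and group cannot be told apart in the comparisons of UT. Libraries stood apart in ways their treatment labels do not give: tumour-like clusters separated UT, BP 1, the set of IgG 1, BP 2 and BPI, and the pair of IgG 2 and CD40. In the monocyte/macrophage-like class BP 1 stood apart, since it gave 98.6% of 1 of the clusters. Values are given for each library for that reason. Levels are UMIs per 1000000 UMIs of the summed cells of a class in a library (CPM), and intervals are exact 95% limits that cover counting error only.

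Cxcl12 transcripts were carried by vessel cells. In endothelial-like cells, which line the vessels, Cxcl12 stood at 135 CPM in UT (118 UMIs in 67 cells), 320 in IgG 2 (681 UMIs in 92 cells), 219 in BP 1 (98 UMIs in 24 cells), 390 in BPI (66 UMIs in 23 cells) and 519 in CD40 (1601 UMIs in 147 cells). IgG 1 had no Cxcl12 UMI in 13 endothelial-like cells, where 3 UMIs would have been 13.6 CPM. BP 2 had 16 UMIs in 6 such cells, too few to compare. The CD40 library was the highest and IgG 1 the lowest of the 6 libraries with 10 or more of these cells. Endothelial-like cells held a median of 61.2% of the Cxcl12 UMIs of a library (6 libraries, leaving out IgG 1, which had 5 Cxcl12 UMIs in all), from 27.6% in BP 2 to 86.7% in BP 1 (SD 21.2 percentage points).

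**Figure D1:**
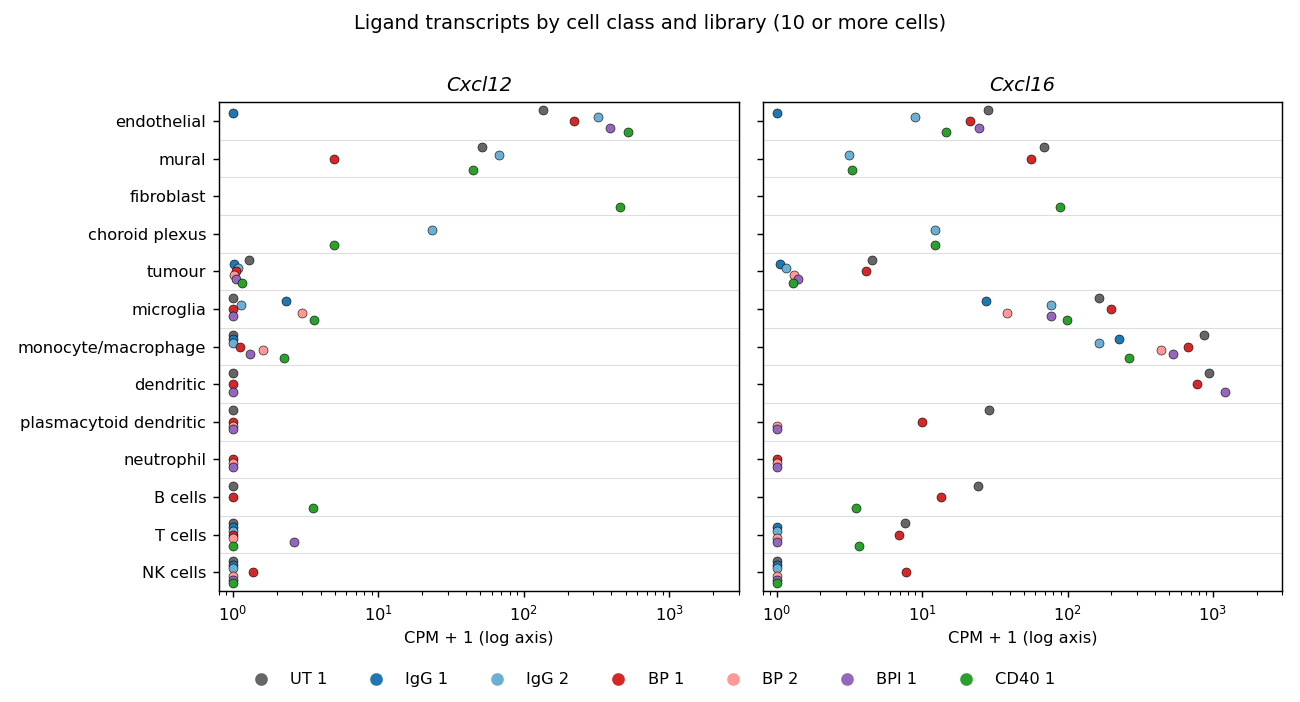
Level of Cxcl12 (left) and Cxcl16 (right) as CPM + 1 on a log axis, by cell class, with 1 point for each library that had 10 or more cells of the class (colour gives the library). Cxcl12 was highest in endothelial-like and fibroblast-like cells, and Cxcl16 in dendritic-like and monocyte/macrophage-like cells.

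Within the vasculature the level of Cxcl12 differed between endothelial-like clusters. The cluster led by Slco1c1 and Slco1a4, transporters known from brain capillary endothelium, together with Cldn5, Flt1 and Itm2a, had 445 CPM in UT, 1850 in IgG 2, 616 in BP 1 and 1800 in CD40. The endothelial-like cluster led by Igfbp7, Cd93 and Col4a2 had 51.7 CPM in UT, 0 in IgG 1, 108 in IgG 2, 81.8 in BPI and 117 in CD40. The 3 libraries with 10 or more cells in both clusters showed the same order. In UT the level was 8.6-fold higher in the transporter-rich cluster (5.48 to 13.9), in IgG 2 it was 17.2-fold higher (14.5 to 20.5), and in CD40 15.3-fold higher (13.5 to 17.5). These cells also differed in depth, with a median of 4263 UMIs per cell in the transporter-rich cluster and 20967 in the other. Another endothelial-like cluster, of 52 cells with a median of 2493 UMIs, lay between them at 83.5 CPM in UT and 231 in IgG 2. Of the 13 endothelial-like cells of IgG 1, 12 fell in the cluster with Cd93. The mix of clusters thus differed between libraries, and its part in the class levels was not tested.

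Mural-like cells, the pericytes and smooth muscle cells around vessels, had lower levels of Cxcl12. They gave 50.5 CPM in UT, 66.7 in IgG 2, 3.92 (1 UMI) in BP 1 and 43.6 in CD40, below the endothelial-like cells of the same library in 4 of 4. The mean paired difference was 2.68 ± 1.24 on the log2(CPM + 10) scale (SD, n = 4), with p = 0.125 in an exact two-sided sign-flip test, the smallest p that 4 libraries allow. The mural-like clusters of 100 and 120 cells also had all 8 endothelial markers raised. In mural-like cells these markers summed to 1320 CPM in UT, 734 in IgG 2, 2800 in BP 1 and 1060 in CD40, none of the 8 at 0, and their part in the mural-like levels was not tested. Clusters of the mural-like class were uneven too. The 12 IgG 2 cells of a cluster of 19 cells led by Vtn, Rgs5 and Atp13a5 had 901 CPM, while the cluster with the contractile genes Acta2 and Tagln had 12 CPM in IgG 2, 0 in BP 1 and 29 in CD40. Fibroblast-like cells, which make collagens, had 459 CPM in the 20 cells of CD40 (94 UMIs), and the other libraries held 0 to 5 cells each. A cluster that shared endothelial and mural markers was left unnamed and is described in the closing section.

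**Figure D2:**
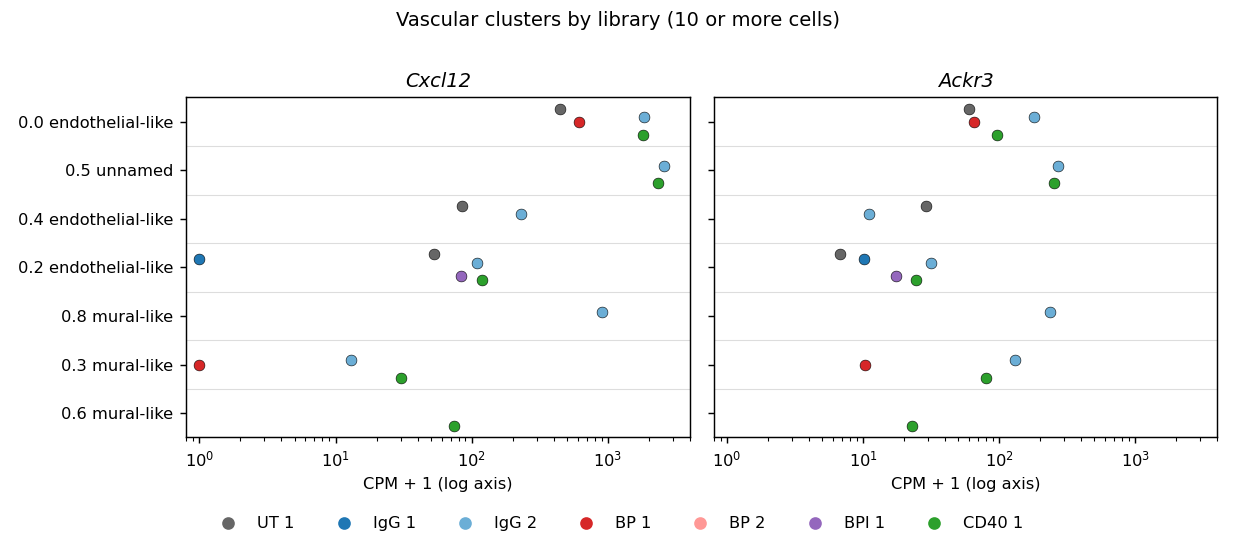
Level of Cxcl12 (left) and Ackr3 (right) as CPM + 1 on a log axis in the clusters of vessel cells, with 1 point for each library that had 10 or more cells of the cluster. In UT, IgG 2 and CD40 the transporter-rich endothelial-like cluster (top row) lies above the cluster with Cd93 (the row just above the mural-like clusters) for both genes.

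Tumour-like cells, 33187 in all, carried almost no Cxcl12. Their level was 0.29 CPM in UT, 0.0141 in IgG 1, 0.0843 in IgG 2, 0.0571 in BP 1, 0.018 in BP 2, 0.0426 in BPI and 0.15 in CD40. Free RNA estimated from near-empty droplets could account for all of these UMIs except the single one of IgG 1, whose droplet profile held none of the 5 genes. The estimate is an upper one. Endothelial-like cells were higher than tumour-like cells in 5 of 6 libraries, by 4.06 ± 2.10 (SD, n = 6) on the log2(CPM + 10) scale, and the exact sign-flip test gave p = 0.0625 (adjusted p = 0.135 over 13 class comparisons). Dendritic-like cells had 0 Cxcl12 UMIs in 106 cells, monocyte/macrophage-like cells had 0 to 1.26 CPM and microglia-like cells 0 to 2.58.

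**Figure D3:**
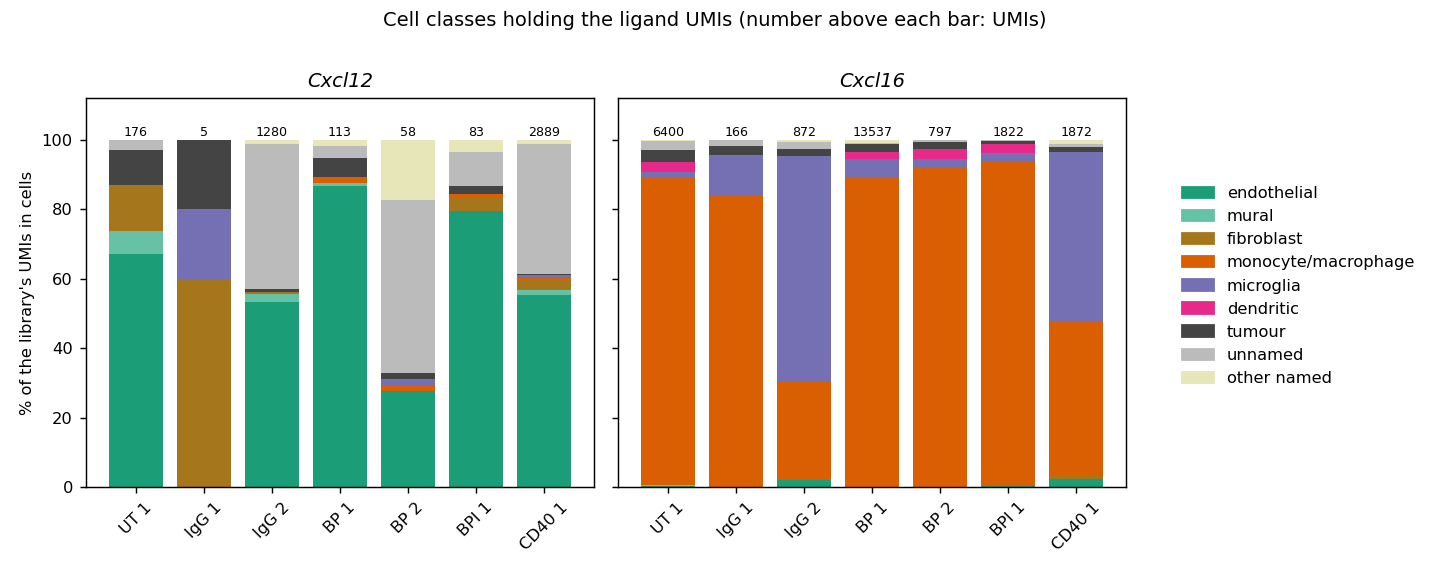
Share of a library's Cxcl12 (left) and Cxcl16 (right) UMIs in cells, in percent, held by each cell class, with 1 stacked bar per library and the number of UMIs above it. Endothelial-like cells hold most Cxcl12 UMIs except in IgG 1 (5 UMIs) and BP 2, and monocyte/macrophage-like cells hold most Cxcl16 UMIs except in IgG 2 and CD40.

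Cxcl16 was highest in dendritic-like and monocyte/macrophage-like cells. Dendritic-like cells, which present antigen to T cells and here carried Ccr7 and Ccl22, had 942 CPM in UT (192 UMIs in 30 cells), 777 in BP 1 (280 UMIs in 59 cells) and 1210 in BPI (45 UMIs in 13 cells). These exceeded the monocyte/macrophage-like cells of the same library in 3 of 3, by 0.50 ± 0.58 on the log2 scale (SD, n = 3), a difference smaller than its spread, with p = 0.25 in the exact sign-flip test, the smallest that 3 libraries allow. Monocyte/macrophage-like cells had 859 CPM in UT, 225 in IgG 1, 163 in IgG 2, 676 in BP 1, 440 in BP 2, 529 in BPI and 263 in CD40. Both IgG libraries and CD40 lay below all of UT, BP and BPI, and BP did not overlap IgG. Across genes with 50 or more UMIs in these cells, 15.4% were higher in both BP libraries than in both IgG libraries and 19.2% were lower in both.

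Microglia-like cells, the resident macrophages of the brain, had less Cxcl16 than monocyte/macrophage-like cells in every library. Their levels were 164 CPM in UT, 26.5 and 76.1 in IgG 1 and 2, 197 and 37.5 in BP 1 and 2, 76.2 in BPI and 97.9 in CD40, and here IgG and BP overlapped. The paired difference between the classes was 2.14 ± 0.81 on the log2 scale (SD, n = 7; higher in 7 of 7). The exact sign-flip test gave p = 0.0156, the smallest that 7 libraries allow, and the adjusted p of 0.0676 over the 13 class comparisons missed 0.05. Microglia-like cells were most numerous in IgG 2 (707) and CD40 (854), and held 64.7% and 48.6% of the Cxcl16 UMIs there. Monocyte/macrophage-like cells held a median of 88.6% over the 7 libraries (SD 26.3 percentage points), with 28.6% in IgG 2 and 44.6% in CD40 as the low values.

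Other classes had less Cxcl16. Among other myeloid cells, neutrophil-like cells had 0 UMIs in 62 cells (3 UMIs would be 56.7 CPM in BP 1) and mast or basophil-like cells 0 in 50 (15.8 CPM in BP 1). Mural-like cells had 67.3 CPM in UT (16 UMIs in 13 cells) and 54.8 in BP 1 (14 UMIs in 12 cells), of which free RNA could account for 9.78% and 14.6%, but 2.15 in IgG 2 and 2.29 in CD40. Endothelial-like cells reached 27.5 CPM at most among libraries with 10 or more cells (in UT, where free RNA could account for 33.6% of the UMIs), and the fibroblast-like cells of CD40 had 87.9 CPM (18 UMIs). Tumour-like cells had 3.5 CPM in UT, 3.08 in BP 1 and 0.0564 to 0.404 in the other libraries, and the free RNA estimate could account for 81.2% to 100% of these UMIs outside IgG 1. Monocyte/macrophage-like cells exceeded tumour-like cells in 7 of 7 libraries, by 5.18 ± 0.72 on the log2 scale (SD, n = 7; exact sign-flip p = 0.0156, adjusted p = 0.0676). T-like and NK-like cells had at most 6.74 CPM. Plasmacytoid dendritic-like cells, an interferon-producing lineage, had 27.6 CPM in UT and 8.97 in BP 1, of which free RNA could account for 48.2% and 100%, and 0 UMIs in BP 2 and BPI.

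Group tests summed counts per class and library and used edgeR's quasi-likelihood test with Benjamini-Hochberg adjustment over all genes of the class. In monocyte/macrophage-like cells 0% of all genes passed an adjusted p of 0.05 for BP, BPI or CD40 against IgG or for BPI against BP, and 0.00775% passed for UT against IgG. The count of 0 for BP against IgG stands beside 953 of 11943 genes with an unadjusted edgeR p under 0.05 and 134 genes called by DESeq2. Unchanged genes would be expected to give a share of 0.05, and 953 lies above it. Cxcl16 was 1.58 log2 units higher in BP than in IgG (SE 0.44), with an edgeR adjusted p of 0.368. In BPI it was 1.93 higher (SE 0.50; edgeR adjusted p = 0.221). In UT it was 2.50 higher (SE 0.52; edgeR adjusted p = 0.139) and in CD40 0.45 higher (SE 0.52; edgeR adjusted p = 1). None of these passed, whereas DESeq2 gave adjusted p = 0.0443 for BP, 0.025 for BPI and 0.00132 for UT. With no filter on low counts edgeR gave adjusted p = 0.0458, 0.0263 and 0.00119, and UT also passed without BP replicate 1 (0.0397) and without BP replicate 2 (0.0263). With UT pooled with IgG the differences fell to 0.25 for BP (edgeR adjusted p = 0.999) and 0.60 for BPI (edgeR adjusted p = 0.999). BPI and BP differed by 0.35 (SE 0.51; edgeR adjusted p = 0.999).

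In BP 1 most of these cells fell in a cluster of its own with Ccl8, Ccl24 and Arg1 among its leading genes (1781 cells, 686 CPM of Cxcl16). In the cluster that every library held, which had 60 BP 1 cells, Cxcl16 stood at 280 CPM in BP 1 and 442 in BP 2, with IgG at 225 and 163. The difference between BP and IgG was then 0.93 log2 units, with an edgeR adjusted p of 0.713. The summed level of 8 microglia markers in monocyte/macrophage-like cells moved with these groups in the opposite direction, at 1440 and 2990 CPM in IgG, 2130 in CD40, 445 and 900 in BP, 590 in BPI and 761 in UT. Of the 8, all were detected except 2 in IgG 1 and 1 in BP 2, and their part in the Cxcl16 difference was not tested. In microglia-like cells 0% of genes were called in any of the 5 contrasts. For BP against IgG, 560 of 12313 genes had an unadjusted edgeR p under 0.05, below the share of 0.05 that unchanged genes would give, and DESeq2 called 34. Cxcl16 in microglia-like cells differed by 1.19 log2 units between BP and IgG (SE 0.79; edgeR adjusted p = 1). Here 1 library decided the value, since the difference was -0.56 without BP replicate 1 and 1.87 without BP replicate 2 (edgeR adjusted p = 0.000372).

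Cxcr4, the signalling receptor for CXCL12, was spread over many immune classes. In B-like cells, where it retains developing and follicular cells in their niches, it stood at 109 CPM in UT (14 UMIs in 36 cells), 107 in BP 1 (26 UMIs in 50 cells) and 291 in CD40 (115 UMIs in 47 cells). The CD40 value lay outside the counting interval of both others (59.8 to 183 in UT and 70.2 to 157 in BP 1), with 1 library a group and no test. Neutrophil-like cells, which leave the marrow when this receptor is low, had 510 CPM in BP 1 (27 UMIs in 26 cells) and 186 in BPI (4 UMIs in 14 cells). BP 2 had 0 UMIs in 11 of these cells, where 3 UMIs would be 158 CPM. The mast or basophil-like cells of BP 1 had 200 CPM (38 UMIs in 48 cells).

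**Figure D4:**
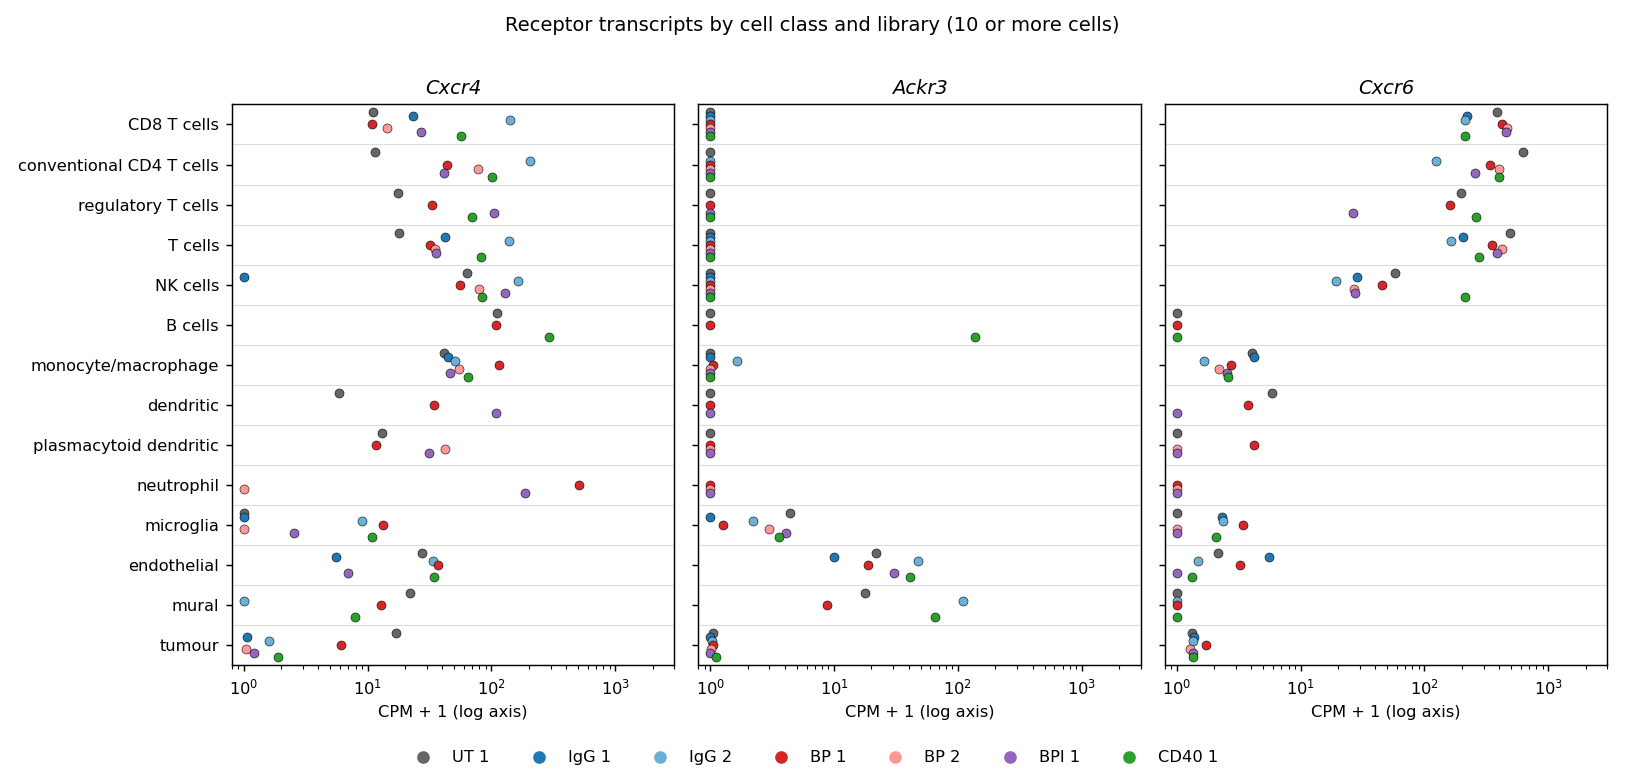
Level of Cxcr4, Ackr3 and Cxcr6 as CPM + 1 on a log axis, by cell class, with 1 point for each library that had 10 or more cells of the class. Cxcr4 is spread over immune classes, Ackr3 is found in vessel cells and in the B-like cells of CD40, and Cxcr6 is high in T-like cells and in the NK-like cells of CD40. Several brain cell classes that also carried Ackr3 are not drawn, astrocyte-like, ependymal-like, choroid plexus-like, neuron-like and oligodendrocyte progenitor-like cells among them.

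In T-like cells Cxcr4 was 16.8 CPM in UT (33 UMIs), 41 in IgG 1 (5 UMIs), 138 in IgG 2 (30 UMIs), 30.7 in BP 1 (312 UMIs), 33.8 in BP 2 (25 UMIs), 34.9 in BPI (64 UMIs) and 81.1 in CD40 (61 UMIs). IgG 2 was the highest and UT the lowest, and both BP libraries lay below both IgG libraries, as did 9.23% of genes with 50 or more UMIs in these cells (28.5% were above). By edgeR Cxcr4 was lower in BP than in IgG by a log2 fold change of -1.79 (SE 0.49; adjusted p = 0.0343) and in UT by -2.61 (SE 0.63; adjusted p = 0.00354). Ackr3, Cxcl12 and Cxcl16, at most 0, 1.64 and 6.62 CPM in T-like cells, fell below the filter on low counts and were not tested. Of Cxcr4 and Cxcr6, the genes tested, only Cxcr4 was called in either contrast, against 1.17% of all genes for BP (0.939% higher, 0.229% lower) and 2.66% for UT (1.43% higher, 1.23% lower). Without IgG replicate 2 the log2 fold changes were -0.48 for BP (edgeR adjusted p = 0.969) and -1.22 for UT (edgeR adjusted p = 0.679), so neither call held without that library. The BP call was also lost without BP replicate 1 (-1.55; edgeR adjusted p = 0.338), with free RNA subtracted, with doublets kept, with UT pooled with IgG, with no filter on low counts and with the replicate block (-1.58; edgeR adjusted p = 0.68). The UT call was also lost with free RNA subtracted (edgeR adjusted p = 0.916) and with DESeq2 (adjusted p = 0.0709), and DESeq2 gave a log2 fold change of -1.76 for BP and no adjusted p.

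The BPI library differed from IgG by -1.39 log2 units (SE 0.59; edgeR adjusted p = 0.507), the CD40 library by -0.34 (SE 0.57; edgeR adjusted p = 1), and BPI from BP by 0.41 (SE 0.53; edgeR adjusted p = 1). Neither Cxcr4 nor Cxcr6, the only ones of the 5 genes tested in T-like cells, was called in these contrasts, where 0.655% (0.546% higher, 0.109% lower), 0.131% and 0.218% of all genes passed. In CD8 and conventional CD4 T-like cells IgG 2 again lay above BP. In CD8 T-like cells, the cytotoxic subset, Cxcr4 was 10.1 CPM in UT, 22.1 (1 UMI) and 141 (8 UMIs) in IgG, 9.9 and 13.4 in BP, 26 in BPI and 55.3 in CD40. In conventional CD4 T-like cells, the helper subset, it was 10.5 in UT, 205 in the 13 cells of IgG 2, 42.9 and 76.4 in BP, 40.4 in BPI and 101 in CD40. Regulatory T-like cells, which restrain other T cells and carry Foxp3, had 16.7 CPM in UT, 32.3 in BP 1, 103 in BPI (4 UMIs) and 69.1 in CD40 (4 UMIs).

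The mix of subsets moved with the libraries as well. CD8 T-like cells made up 19.8% of T-like cells in UT, 30.8% and 22.8% in IgG, 38.5% and 50.7% in BP, 58% in BPI and 41.1% in CD40. Free RNA could account for up to 22.3% of the Cxcr4 UMIs of T-like cells, the value in BP 1, and for 0.0445% in IgG 2. The parts of subset mix and free RNA in the Cxcr4 difference were not tested beyond the recalculation with free RNA subtracted, which is given in the closing section.

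NK-like cells, innate cytotoxic lymphocytes, had Cxcr4 at 63 CPM in UT, 164 in IgG 2 (9 UMIs in 16 cells), 54.3 and 78.1 in BP, 128 in BPI and 82.4 in CD40, and 0 UMIs in the 43 cells of IgG 1 (3 UMIs would be 27.4 CPM). They were higher than T-like cells in 6 of 7 libraries, yet the paired difference (T-like minus NK-like) of -0.38 ± 1.34 on the log2 scale (SD, n = 7) was smaller than its spread (exact sign-flip p = 0.469). Cxcr4 was not called between groups in NK-like cells (edgeR adjusted p from 0.974 to 1 over the 5 contrasts). Monocyte/macrophage-like cells had 114 CPM in BP 1 and 40.3 to 63.2 in the other 6 libraries, and microglia-like cells 0 to 12.3. The former exceeded the latter in 7 of 7 libraries by 2.26 ± 0.34 (SD, n = 7; exact sign-flip p = 0.0156, adjusted p = 0.0676). Between BP and IgG, monocyte/macrophage-like Cxcr4 differed by 0.89 log2 units (SE 0.40; edgeR adjusted p = 0.648).

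Tumour-like cells carried Cxcr4 in UT at 15.9 CPM (985 UMIs, 18.1% of cells with a UMI) and in BP 1 at 5.05 (531 UMIs). The other 5 libraries had 0.036 to 0.887 CPM. Free RNA could account for 6.25% of the UT UMIs and 50.3% of those of BP 1. All 4 tumour-like clusters with 10 or more UT cells had the transcript, at 9.4, 23.8, 7.05 and 8.03 CPM. BP 1 and BP 2 differed widely, and edgeR gave 2.85 log2 units for BP against IgG with an SE of 2.07 (adjusted p = 1), and 5.6 with an SE of 2.43 for UT (adjusted p = 0.405). In tumour-like cells 0% of genes were called in any of the 5 contrasts. BP against IgG had 414 of 20137 genes with an unadjusted edgeR p under 0.05, below the share of 0.05 that unchanged genes would give, and 62 called by DESeq2. Endothelial-like cells, in which this receptor marks sprouting tips, had 26.4 CPM in UT, 4.52 in IgG 1 (1 UMI), 32.5 in IgG 2, 35.8 in BP 1, 5.91 in BPI (1 UMI) and 33.1 in CD40.

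Ackr3, the scavenging receptor, was carried by both endothelial-like and mural-like cells. Endothelial-like cells had 20.6 CPM in UT, 9.03 in IgG 1 (2 UMIs), 47 in IgG 2, 17.9 in BP 1, 29.5 in BPI and 40.2 in CD40. Mural-like cells had 16.8 CPM in UT, 108 in IgG 2, 7.83 in BP 1 (2 UMIs) and 64.2 in CD40. The classes did not differ beyond their spread, with an endothelial-minus-mural difference of -0.19 ± 0.76 on the log2 scale (SD, n = 4; exact sign-flip p = 0.75). Endothelial-like cells exceeded tumour-like cells, which had 0 to 0.12 CPM, in 6 of 6 libraries by 1.80 ± 0.58 (SD, n = 6; exact sign-flip p = 0.0312, adjusted p = 0.0811).

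As with Cxcl12, the transporter-rich endothelial-like cluster had more Ackr3 than the cluster with Cd93. The levels were 58.5 against 5.75 CPM in UT, 179 against 30.4 in IgG 2 and 95 against 23.3 in CD40. The ratios were 10.2 (2.62 to 57.6), 5.87 (3.86 to 8.89) and 4.07 (2.81 to 5.92), so the scavenger and its ligand were higher in the same endothelial-like cluster in each of these libraries. Choroid plexus-like cells, which secrete cerebrospinal fluid, had 20.5 CPM in IgG 2 and 25 in CD40, and astrocyte-like cells had 64.2 CPM in IgG 2 (7 UMIs in 20 cells) and 17.8 in CD40 (4 UMIs in 28 cells). The 20 fibroblast-like cells of CD40, high in Cxcl12, had 9.76 CPM (2 UMIs).

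Lymphocytes carried Ackr3 in 1 place. The 47 B-like cells of CD40 had 54 UMIs (136 CPM, interval 103 to 178), in 36.2% of cells, and 6.38% after thinning each cell to 1000 UMIs. The 36 B-like cells of UT and the 50 of BP 1 had 0 UMIs, where 3 UMIs would be 23.4 and 12.4 CPM. These CD40 cells formed a B-like cluster of their own with all 7 B markers, and 6 of 8 endothelial markers were at 0 in them (summed level 124 CPM, against 336 in the B-like cells of UT and 442 in BP 1). T-like and NK-like cells had 0 Ackr3 UMIs in all 7 libraries (2609 and 1124 cells), and dendritic-like cells had 0 in 106 cells. With no second CD40 library, treatment and library cannot be told apart here.

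Cxcr6, the receptor for CXCL16, was a T cell transcript. T-like cells had 486 CPM in UT (955 UMIs), 205 in IgG 1 (25 UMIs), 162 in IgG 2 (35 UMIs), 349 in BP 1 (3545 UMIs), 425 in BP 2 (315 UMIs), 387 in BPI (709 UMIs) and 275 in CD40 (207 UMIs). Both IgG libraries lay below the other 5, and both BP libraries were above them, as were the 28.5% of genes given above. By edgeR the log2 differences from IgG were 0.96 for BP (SE 0.44; adjusted p = 0.529), 1.19 for BPI (SE 0.51; adjusted p = 0.529), 0.53 for CD40 (SE 0.52; adjusted p = 1) and 1.35 for UT (SE 0.52; adjusted p = 0.154). None passed the threshold, though the UT difference passed it in 1 of 9 alternatives. After each cell was thinned to 1000 UMIs, the share of T-like cells with a Cxcr6 UMI was 34.4% in UT, 12.8% and 15.8% in IgG, 28.5% and 30.8% in BP, 26.4% in BPI and 21.7% in CD40. The IgG shares were again the lowest, on 5 and 9 cells, but their intervals (4.3% to 27.4% and 7.48% to 27.9%) held the BPI and CD40 values. Without thinning the shares were 67%, 41% and 26.3%, 61.8% and 52.9%, 50.8% and 57.4%. Tumour-like cells, which should lack the gene, had it in 0.365% to 1.56% of cells.

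Cxcr6 in CD8 and conventional CD4 T-like cells did not differ beyond the spread between libraries. CD8 T-like cells had 383 CPM in UT, 221 and 211 in IgG, 421 and 461 in BP, 458 in BPI and 210 in CD40. Conventional CD4 T-like cells had 619 in UT, 123 in IgG 2, 339 and 395 in BP, 256 in BPI and 395 in CD40. CD8 cells were higher in 4 of 6 libraries and the mean difference was 0.09 ± 0.71 on the log2 scale (SD, n = 6; range -0.88 to 0.82; exact sign-flip p = 0.75). Regulatory T-like cells had less, at 196 CPM in UT, 161 in BP 1, 25.7 in BPI (1 UMI in 12 cells) and 259 in CD40, below conventional CD4 cells in 4 of 4 libraries. That difference was -1.53 ± 1.0 (SD, n = 4; exact sign-flip p = 0.125, the smallest p for 4 libraries).

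NK-like cells had Cxcr6 at 57.1 CPM in UT (29 UMIs), 27.4 in IgG 1 (3 UMIs), 18.3 in IgG 2 (1 UMI), 44.5 in BP 1 (119 UMIs), 26 in BP 2 (6 UMIs), 26.7 in BPI (19 UMIs) and 211 in CD40 (64 UMIs in 62 cells). CD8 T-like cells exceeded them by 2.64 ± 1.25 on the log2 scale (SD, n = 7), in 6 of 7 libraries, with an exact sign-flip p of 0.0312 (adjusted p = 0.0811). CD40 was the exception, with 210 CPM in CD8 T-like and 211 in NK-like cells. In NK-like cells, a class added to the tests after the data were seen because libraries had as few as 16 of them, edgeR placed Cxcr6 3.15 log2 units higher in CD40 than in IgG (SE 0.72; adjusted p = 0.0251), against 0.242% of all genes called. The IgG libraries together had only 4 UMIs. The adjusted p was 1 with DESeq2, 0.478 without IgG replicate 1 and 0.403 without IgG replicate 2.

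The 10 T cell markers had a summed level of 1050 CPM in the NK-like cells of CD40 and 1090 in those of UT, with 484 and 493 in IgG, 520 and 668 in BP and 596 in BPI. Of these markers 2 were at 0 in CD40, 4 in UT, 6 and 5 in IgG 1 and 2, 0 and 4 in BP 1 and 2 and 1 in BPI. A CD3 UMI was carried by 27.4% of the NK-like cells of CD40 and by 12.4% to 20.6% of those of the other libraries. With these cells left out, the NK-like cells of CD40 had 203 CPM of Cxcr6 and those of the other libraries 0 to 44.8. The difference from IgG was 3.26 log2 units (edgeR adjusted p = 0.0841), on 3 and 0 UMIs in IgG 1 and 2. For BP, BPI, UT and BPI against BP, Cxcr6 in NK-like cells had edgeR adjusted p values from 0.67 to 1, beside 0.345%, 0.0173%, 0.451% and 0.207% of all genes called. Among the remaining classes B-like cells had 0 Cxcr6 UMIs, and monocyte/macrophage-like cells had 0.655 to 3.24 CPM.

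The receptors also varied with each other within T-like cells. Cells were divided by the presence of a Cxcr6 UMI, a division made after seeing the data that favours deeper cells (medians over all libraries of 5246 UMIs with and 3132 without), so the levels are descriptive. Cxcr4 was lower in cells with a Cxcr6 UMI in 5 of 7 libraries, at 11.3 against 34.8 CPM in UT, 24.7 against 44.4 in BP 1, 20.6 against 52.8 in BP 2, 22.2 against 55.3 in BPI and 75.8 against 87.8 in CD40. The IgG libraries went the other way, with 48.5 against 33.2 CPM in IgG 1 on 3 and 2 UMIs and 193 against 111 in IgG 2. S1pr1, the receptor that guides lymphocytes out of tissue, was lower in cells with a Cxcr6 UMI in all 7, at 2.66 against 43.4 CPM in UT, 9.46 against 51.2 in BP 1, 13.8 against 396 in IgG 2 and 40.3 against 109 in CD40. Tcf7, a transcription factor of naive and memory T cells, was also lower in all 7 (24.7 against 137 CPM in BP 1 and 9.77 against 92.1 in BPI). Rgs1, which dampens chemokine receptor signalling, was higher in all 7 (486 against 298 CPM in BP 1 and 468 against 389 in UT).

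Genes around the axes were counted in 4 lists, which were drawn up with earlier results of these data known. Of 10 egress and recirculation genes, 9 were tested in T-like cells, and 5 were lower and 0 higher in BP than in IgG, where 0.229% of all genes were lower and 0.939% higher. Their median log2 fold change was -1.53, beside 0.05 for all genes tested. Per library, S1pr1 stood at 98.3 and 268 CPM in IgG and 22.1 and 68.9 in BP, a log2 fold change of -2.30 by edgeR (adjusted p = 0.000637). Lef1, a transcription factor of naive T cells, had 172 and 655 CPM in IgG against 178 and 120 in BP, a log2 fold change of -1.72 (edgeR adjusted p = 0.0132). For S1pr1 both BP libraries lay below both IgG libraries, as did 9.23% of genes with 50 or more UMIs in these cells (28.5% were above). For Lef1 and Tcf7 IgG 1 was lower than BP 1 and IgG 2 higher than all. In UT 7 of 9 were lower, against 1.23% of all genes (median -2.29, beside 0.03), led by S1pr1 at 12.2 CPM (log2 fold change -4.06; edgeR adjusted p = 8.57e-08). In BPI 2 of 9 were lower, S1pr1 and Tcf7, against 0.109% of all genes, and in CD40 0 of 9, where 0.131% of all genes were called and 2 of the 9 were lower at an unadjusted p under 0.05. Without IgG replicate 2 the counts fell to 0 of 9 for BP and for BPI and 1 of 9 for UT, and without BP replicate 1 that for BP fell to 1. With free RNA subtracted 0 were called in all 3, and DESeq2 called 0 of 10 for BP and for BPI and 2 of 10 for UT. For BP the DESeq2 median was -1.45 for the list and -0.37 for all genes.

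**Figure D5:**
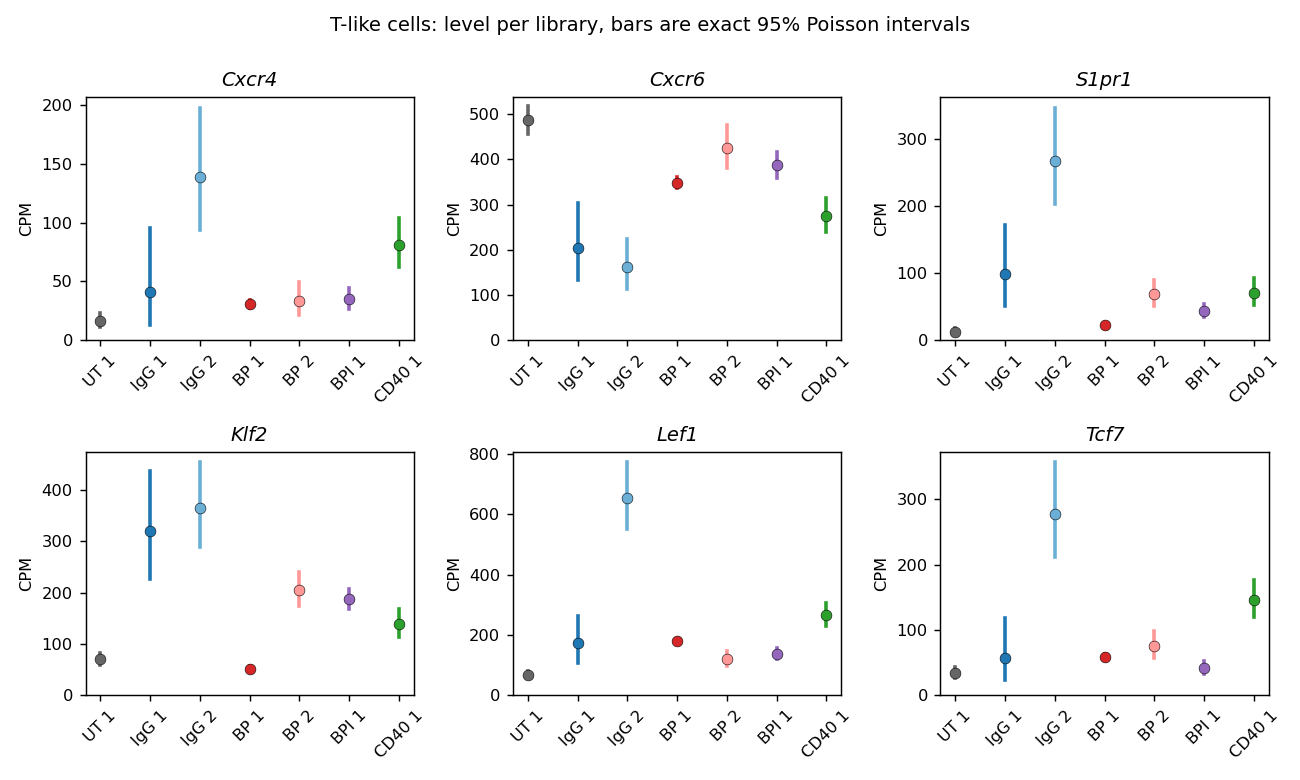
Level in T-like cells of Cxcr4, Cxcr6 and 4 egress genes (CPM, linear axes), with 1 point per library and exact 95% Poisson intervals as bars. IgG 2 is the highest library for Cxcr4, S1pr1, Klf2, Lef1 and Tcf7 and the lowest for Cxcr6, while IgG 1 has wide intervals and lies near the other libraries for Cxcr4, Lef1 and Tcf7.

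Fewer genes of the other lists were called for BP, BPI and UT against IgG. Of the retention and residency genes 9 were tested, and for BP 1 was higher and 1 lower, against 0.939% and 0.229% of all genes (median 0.59). Itga1, an integrin chain of resident T cells, had 0 and 4.62 CPM in IgG and 52.6 and 55.4 in BP (log2 fold change 3.99; edgeR adjusted p = 0.0127). The IgG libraries held only 1 Itga1 UMI, so the size of this fold change rests on 1 count. The gene met the filter on low counts only outside IgG. Xcl1, a chemokine for dendritic cells, had 876 and 300 CPM in IgG against 76.2 and 243 in BP (log2 fold change -1.92; edgeR adjusted p = 0.00581). Without IgG replicate 1 or IgG replicate 2 no gene of this list was called for BP, and without BP replicate 1 there were 2 higher and 0 lower. In UT 1 of the 9 was lower, against 1.23% of all genes, again Xcl1 (log2 fold change -2.43; edgeR adjusted p = 0.00232), and 0 without IgG replicate 1. In BPI and CD40 0 of the 9 were called, with 4 and 2 past an unadjusted p of 0.05. Of 12 tested genes of CXCL16 shedding and induction, 1 was higher in BP, 1 in BPI and 1 in UT, where 0.939%, 0.546% and 1.43% of all genes were higher, in each case Ifng, the cytokine that induces Cxcl16 in myeloid cells, and none in CD40. Ifng stood at 287 CPM in UT, 57.3 and 87.7 in IgG, 342 and 405 in BP, 1580 in BPI and 37.2 in CD40. It was higher than in IgG by 2.17 log2 units in BP, with an edgeR adjusted p of 0.00581, and by 4.48 in BPI, with 1.12e-10. BPI exceeded BP by 2.31 (edgeR adjusted p = 0.00325), where 0.218% of all genes were called. In this list 0 genes were called for BP or UT without IgG replicate 1 or 2, and 0 for BPI against BP without either of these or BP replicate 1, while the count for BPI against IgG stayed at 1 in each case. The sheddases Adam10 and Adam17 were not called in any contrast in T-like cells.

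Of 16 tested genes of CXCL12 handling and CXCR4 signalling, 2 were higher in BP (0.939% of all genes) and in UT (1.43%), Cd74 and Rgs16, and 1 in CD40, Cd74, where 0.131% of all genes were called. Cd74, a receptor for MIF and the invariant chain of antigen-presenting cells, had 8.19 and 0 CPM in IgG, 117 and 14.9 in BP, 17.5 in BPI, 114 in CD40 and 119 in UT (log2 fold change 4.25 for BP; edgeR adjusted p = 0.00507). The IgG libraries held only 1 Cd74 UMI, so the size of its fold changes from IgG rests on 1 count. Cd74 met the filter on low counts only outside IgG, so its calls for BP, UT and CD40 carry this limit. The 10 monocyte/macrophage markers summed in T-like cells to 2110 CPM in UT, 1580 and 1280 in IgG, 1590 and 2540 in BP, 2980 in BPI and 807 in CD40, with 0 to 4 of the 10 at 0, and their part in the Cd74 values was not tested. Rgs16, which speeds the shut-off of G proteins, had 49.1 and 9.23 CPM in IgG and 178 and 91.8 in BP (log2 fold change 2.25; edgeR adjusted p = 0.0179). Without IgG replicate 2, 0 genes of this list were called for BP, UT or CD40, and for BP only 1 was called without BP replicate 1. No gene of the 4 lists was called in monocyte/macrophage-like, microglia-like or tumour-like cells. In NK-like cells 1 of 7 tested retention and residency genes was lower in BP, against 0.345% of all genes called, and it was Xcl1, at 1650 and 785 CPM in IgG and 123 and 464 in BP (log2 fold change -2.08; edgeR adjusted p = 0.0154). No gene of that list was called there without IgG replicate 1, IgG replicate 2 or BP replicate 1, with UT pooled with IgG, with free RNA subtracted or by DESeq2.

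Across 59 class and library sums from 17 classes, the genes most like each member in log2(CPM + 10) were found by Pearson correlation over 11894 genes, a description in which sums share libraries. Cxcl12 was most like Apcdd1 (r = 0.942), Wfdc1 (r = 0.939) and Ism1 (r = 0.938). Cxcl16 was most like Tmem106a (r = 0.87), Tnfrsf11a (r = 0.861) and Anxa4 (r = 0.856). Cxcr6 was most like the T cell receptor genes Cd3g (r = 0.973) and Trbc2 (r = 0.958) and the costimulator Icos (r = 0.954). Cxcr4 had no likeness as close, with Adgre5 (r = 0.768), Nedd9 (r = 0.762) and Arhgap15 (r = 0.757) leading, and Ackr3 was most like Sparcl1 (r = 0.791), Timp3 (r = 0.784) and Sorbs2 (r = 0.779).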

How the data were processed

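UMI counts per gene and barcode were used as deposited, aligned by the authors to mm10 with Cell Ranger 7.0.1 per the submitters' processing notes (the file headers name version 4 of the same software), in 7 libraries. Another tumour model of the series was not analysed here. Barcodes needed at least 1000 UMIs and 500 genes, with no more than 15% of UMIs mitochondrial, and the highest Scrublet scores (4.5% to 8.44% of a library) were removed as doublets. Cells were clustered with scanpy 1.11.5 (2000 variable genes without the 5 members, 30 components, Leiden resolution 1) and named from marker lists with at least 3 raised, by a naming rule set after seeing the data. CD8, conventional CD4 and regulatory T-like cells were gated on UMIs of Cd8a, Cd8b1, Cd4 and Foxp3. Summed counts were tested with edgeR 4.0.16 (quasi-likelihood, TMM, filterByExpr, classes with 20 or more cells in every library, NK-like with 10), and DESeq2 1.42.0 was an alternative. IgG, BP, BPI and CD40 shared 1 fit, and a fit of all 7 libraries gave UT against IgG. For BP against IgG, 4-fold changes were simulated in 200 genes, all above the median level, so recovery of sparser genes was not simulated. Of the 200, edgeR recovered 64.5% in T-like cells (9162 genes run), 45% in monocyte/macrophage-like (11943 genes), 40% in microglia-like (12313 genes) and 3% in tumour-like cells (20137 genes). Unchanged genes called were 5, 8, 24 and 3 in the same order. Class comparisons within libraries used exact two-sided sign-flip tests on log2(CPM + 10), adjusted over 13 comparisons. Named genes were the 5 members, called genes of the 4 lists (at most 3 in each direction for each class, contrast and list) and the 3 genes most like each member. The members and lists were chosen with earlier results of these data known. Free RNA was estimated from barcodes with 10 to 100 UMIs, scaled by tumour, glial and vascular markers in lymphoid cells (291 to 1860 UMIs per droplet). Alternatives were other normalization and filters, libraries left out, replicate blocks, UT pooled with IgG, free RNA subtracted, doublets kept, Leiden resolution 2, and, added after seeing the data, a crossed block, only the monocyte/macrophage-like cluster that all libraries hold, and NK-like cells without CD3.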

Additional observations from a re-analysis of the deposited data

Results flagged for a closer look

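Cxcl12 had its highest levels in cells that no class held. An unnamed cluster of 60 cells carried both endothelial and mural markers (all 8 of each). Unlike the mural-like clusters with all 8 of each, it had at least 2 markers of each kind among its 10 leading genes (Vtn and Rgs5 with Cldn5, Flt1 and Ly6c1), and so stayed out of the class values. Its Cxcl12 level was 2590 CPM in IgG 2 (524 UMIs in 13 cells) and 2330 CPM in CD40 (1073 UMIs in 40 cells), above every named class in those libraries. Ackr3 stood there at 267 and 252 CPM. These cells held most of the 41.9% and 37.2% of Cxcl12 UMIs that fell in unnamed cells in IgG 2 and CD40. They had a median of 9425.5 UMIs per cell, beside 4263 in the transporter-rich endothelial-like cluster and 8657.5 in the mural-like cluster with Acta2.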

How the results depend on the processing

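None of the 13 class comparisons passed an adjusted p of 0.05 under any of 14 alternatives. With 1 library left out none could pass after adjustment over 13. The most libraries a comparison then had was 6, where the smallest sign-flip p is 0.0312. Of 182 recalculated values 178 kept their direction. The reversals were Cxcr6 in CD8 against conventional CD4 T-like cells (-0.04 without IgG replicate 2 and -0.06 without BPI, range to 0.28 with 1 library left out), Ackr3 in endothelial-like against mural-like cells (0.09 without IgG replicate 2, range from -0.47), and Cxcr4 in T-like against NK-like cells as a thinned share of cells (0.98 percentage points). For BP against IgG, the number of calls summed over the 5 genes and 4 classes was 1, that of Cxcr4 in T-like cells. It was 0 with the replicate block, UT pooled with IgG, free RNA subtracted or doublets kept. For UT it was 1, with 2 under DESeq2 or no filter, 0 with free RNA subtracted and 0 to 3 with 1 library left out, and for BPI 0, with 1 under DESeq2 or no filter. Cxcr4 in T-like cells, BP against IgG, kept its direction and lost the call at -1.66 with no filter, -1.07 with UT pooled, -1.7 with free RNA subtracted and -1.85 with doublets kept, and ranged from -2.37 to -0.48 with 1 library left out (adjusted p 0.00666 to 1 over all alternatives). For UT the call was lost at -2.59 with DESeq2 and -2.63 with free RNA subtracted, and the value was -3.18 to -1.22 with 1 library left out. Cxcr6 in the NK-like cells of CD40 missed the threshold at 3.2 with DESeq2, 2.28 with UT pooled, 2.87 with free RNA subtracted, 3.26 without cells with a CD3 UMI, 3.73 without IgG replicate 1 and 2.95 without IgG replicate 2, and passed it in the other 5 alternatives. For these group differences the cause was not tested.

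Of 255 recalculated group differences 218 kept direction and call, 16 lost a call, 10 gained one and 11 reversed. Cxcr4 in T-like cells of CD40 reversed to 0.97 without IgG replicate 2 (range from -0.93) and 0.37 with UT pooled, Cxcr6 there to -0.12 with UT pooled, and Cxcl16 in CD40 monocyte/macrophage-like cells to -0.9. Cxcr6 in NK-like cells reversed with UT pooled to -0.25 for BP and -0.58 for BPI, and for BPI to -0.06 with free RNA subtracted and -0.06 without cells with a CD3 UMI. For BP against IgG, Cxcl16 in microglia-like cells reversed to -0.56 without BP replicate 1 (range to 2.2), and Cxcr4 in tumour-like cells to -3.02 without it (range to 5.24) and -1.22 with UT pooled. Genes called in T-like cells ranged from 0 to 240 for BP (107 as reported), 0 to 370 for UT (248), 0 to 119 for BPI (60), 0 to 17 for CD40 (12) and 0 to 227 for BPI against BP (20). In NK-like cells they ranged from 0 to 84 for BP (20), 0 to 95 for UT (31), 0 to 11 for BPI (1), 0 to 36 for CD40 (14) and 0 to 107 for BPI against BP (12). With free RNA subtracted, or in the 4 contrasts that allow UT pooled with IgG, 0 genes of the 4 lists were called in T-like cells in the directions reported.

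The replicate numbers are shared by name only. Same-numbered IgG and BP libraries deviated from their group means with r = -0.68 in tumour-like, -0.23 in monocyte/macrophage-like, 0.06 in microglia-like and -0.06 in T-like cells. With the replicate block, Cxcr4 in T-like cells was -1.58 for BP against IgG (adjusted p = 0.68) and 0 genes were called. With the numbers crossed, 100 genes were called in T-like, 456 in monocyte/macrophage-like and 0 in tumour-like cells. The depth of IgG limits the contrasts with IgG, with 5 and 30 Cxcr4 UMIs in its T-like cells.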

Other observations

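Small classes of the brain's own cells carried some of the genes. Ependymal-like cells of the CD40 library had Cxcr4 at 67.8 CPM and Ackr3 at 35.9 CPM in 17 cells, and those of IgG 2 had 72.1 and 32.1 CPM in 7 cells. Oligodendrocyte-like cells of CD40 had 27 Cxcl12 UMIs (35.1 CPM), with a UMI in 1.85% of 54 cells. Astrocyte-like cells of BP 2 had 10 Cxcl12 UMIs in 6 cells, which was 17.2% of the Cxcl12 UMIs of that library. All rest on few cells, the last 2 on 1 library each, and were not tested.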
